A study of Rattus norvegicus with 12 samples.

Results

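The D-type cyclins, the kinases they activate and the inhibitors of those kinases form the control point at which a cell in G1 commits to DNA replication. The set described here holds 10 genes, chosen by symbol: the cyclins Ccnd1, Ccnd2 and Ccnd3, the kinases Cdk4 and Cdk6, the INK4 inhibitors Cdkn2b and Cdkn2c, and the CIP/KIP inhibitors Cdkn1a, Cdkn1b and Cdkn1c. All 10 were found among the 33294 genes of the count table, and all 10 were among the 18438 genes tested. RNA came from PAC1 cells, a rat pulmonary artery smooth muscle line grown under conditions that favour the differentiated state. The study describes the control cells of this knockdown experiment as less differentiated than those of its other RNA-seq experiment. Of 12 poly(A) RNA-seq libraries, 3 received the control siRNA C2, 3 an siRNA against RBPMS, 3 an siRNA against RBFOX2 and 3 an siRNA against QKI (listed as Qk). These are RNA-binding proteins that control splicing, and the study paired their knockdown (KD) with an assay of proliferation. According to the labels, control cells and knockdown cells alike got 90 pmol of their siRNA on each of 2 occasions set 24 h apart, and were lysed 48 h past the second dose, while the study describes longer intervals. Each target was depleted with 1 siRNA in 1 cell line. The study describes its replicates as biological, the labels number them without saying how the cultures were separated, and the p-values measure the spread between these libraries.

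Mitogens raise D-type cyclins, which bind and activate CDK4 and CDK6. The active kinases phosphorylate RB1 and its relatives, the pocket proteins, which releases E2F transcription factors and lets the genes of DNA replication be transcribed. INK4 proteins (p15, encoded by Cdkn2b, and p18, encoded by Cdkn2c) bind CDK4 and CDK6 directly and keep cyclin D away. CIP/KIP proteins (p21 from Cdkn1a, p27 from Cdkn1b and p57 from Cdkn1c) bind whole cyclin-CDK complexes and mainly block CDK2. In vascular smooth muscle, p27 and p21 are known as brakes on growth after injury, and cyclin D1 as a mitogen-induced gene.

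The sense strands of the siRNAs that define the 4 groups are shown first, because every contrast below is a contrast between these reagents.
C2, control: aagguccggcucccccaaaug
RBPMS: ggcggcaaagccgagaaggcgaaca
RBFOX2: gcaaugguucagccuuuua
QK, used for QKI KD: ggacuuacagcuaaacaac

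RefSeq promoter sequences (build GRCr8, not the build the authors aligned to) were at hand for 6 of the 10 genes: Ccnd3, Cdk4, Cdkn1a, Cdkn1b, Cdkn2b and Cdkn2c. The 250 bases before the annotated start are shown for 2 of them, Cdk4 and Cdkn2b, which belong to the opposing arms of the set, rose and fell respectively in RBPMS KD and QKI KD, and hold a regulatory motif that few rat promoters carry. In Cdk4 (chr7:64771203-64771452, plus strand) the capitals mark CACGTG, an E-box bound by MYC and related factors.
Cdk4: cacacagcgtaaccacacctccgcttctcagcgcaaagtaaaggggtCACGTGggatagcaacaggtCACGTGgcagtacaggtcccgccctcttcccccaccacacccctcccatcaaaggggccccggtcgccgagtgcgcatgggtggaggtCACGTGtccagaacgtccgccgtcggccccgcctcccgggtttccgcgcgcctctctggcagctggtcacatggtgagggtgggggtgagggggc
In Cdkn2b (chr5:109134856-109135105, minus strand) the capitals mark TGACGTCA, the cyclic AMP response element.
Cdkn2b: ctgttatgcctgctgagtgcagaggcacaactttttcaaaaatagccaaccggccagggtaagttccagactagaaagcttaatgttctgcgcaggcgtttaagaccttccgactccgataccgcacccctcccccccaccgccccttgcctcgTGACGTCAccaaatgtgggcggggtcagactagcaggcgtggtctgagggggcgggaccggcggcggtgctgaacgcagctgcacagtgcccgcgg

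Both motifs read the same on either strand. The Cdk4 window held 3 copies of CACGTG, beginning 203, 183 and 95 bases before the start. Over the same 250 bases of all 33469 promoters in the table, 5.59% held CACGTG at least once and 0.0508% held it 3 or more times. The single TGACGTCA of Cdkn2b began 96 bases before its start, and 1.59% of all promoters held that motif. The Cdkn2b window also held 3 copies of GGGCGG, the GC box, counted on both strands. Of all promoters, 30.5% held that motif at least once and 7.41% held it 3 or more times. The CCAAT box, an AP-1 site (TGACTCA) and an E2F site (TTTCCCGC) were searched as well, so the motifs shown come from a wider search. Neither CACGTG nor TGACGTCA was in the windows of Ccnd3, Cdkn1a, Cdkn1b or Cdkn2c. These are matches of letters, and binding was not measured.

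The libraries held 111 to 152 M counts each. The study gives fewer reads per sample, both before and after a subsampling step. Low counts here were mostly even (68.1% of values from 1 to 19). The number of fragments behind the counts is thus uncertain. The siRNA targets were lower than control in their own knockdowns, with log2 fold changes of -2.50 for Rbpms, -2.05 for Rbfox2 and -3.13 for Qk. They also moved in the other knockdowns. Rbpms was at -0.81 in RBFOX2 KD and -0.49 in QKI KD. Rbfox2 was at -0.12 in RBPMS KD and -0.15 in QKI KD, and Qk at 0.18 in RBPMS KD and -0.42 in RBFOX2 KD. The part of these cross changes in the results below was not tested. The smooth muscle marker list (10 of 10 genes found, none at the floor of 3 counts) summed to 2170 to 2240 CPM (counts scaled to a total of 1e+06) in control, 1110 to 1210 in RBPMS KD, 867 to 966 in RBFOX2 KD and 1470 to 1560 in QKI KD. Most of that sum was Acta2, Tagln and Myl9. At an adjusted p under 0.05, 3 of the 10 markers rose and 7 fell in RBPMS KD, 2 rose and 6 fell in RBFOX2 KD, and 3 rose and 6 fell in QKI KD. Of all tested genes, 30.4% rose and 29.0% fell in RBPMS KD, 30.1% and 30.1% in RBFOX2 KD, and 32.9% and 34.0% in QKI KD. Of the other cell types, the 5 epithelial markers summed to 72.0 to 73.9 CPM in RBFOX2 KD against 29.5 to 31.7 in control, nearly all of it Krt8, with Krt19 at or below the floor in every library. In QKI KD, 2 epithelial markers at very low levels rose, Epcam from a mean of 0.059 to 0.37 CPM and Cdh1 from 0.082 to 0.39 CPM (adjusted p = 2.27e-04 and 5.59e-05). The 5 leukocyte markers summed to 6.11 to 6.40 CPM in QKI KD against 1.82 to 2.07 in control. Of these, Csf1r went from a mean of 0.40 CPM in control to 3.63 in QKI KD, and Cd68 from 1.04 to 1.98. Of the 3 leukocyte markers tested, 2 rose and 0 fell in QKI KD. The endothelial markers summed to 5.18 to 10.8 CPM over all libraries. The defining leukocyte marker Ptprc had at most 4 counts and the defining epithelial marker Epcam at most 55 counts in a library. The part of these markers in the results below was not tested. In bulk RNA, fewer cells expressing a gene and less RNA per cell cannot be told apart, which also applies to cells at different points of the cell cycle.

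Which of the 10 genes passed the test, and in which direction, differed between the knockdowns. In RBPMS KD, 3 of the 10 genes rose and 4 fell at an adjusted p under 0.05 (edgeR quasi-likelihood test, Benjamini-Hochberg over all genes tested), where 30.4% of all tested genes rose and 29.0% fell. In RBFOX2 KD, 2 rose and 5 fell, against 30.1% and 30.1% of all genes. In QKI KD, 3 rose and 6 fell, against 32.9% and 34.0%. These shares lie near the background of an experiment with this many counts per library. The median absolute log2 fold change of the 10 genes was also near that of all genes in RBPMS KD (0.35 beside 0.33) and RBFOX2 KD (0.32 beside 0.33), and was 0.55 beside 0.42 in QKI KD. Adding the study's fold threshold (an absolute log2 fold change above 1), 2 genes passed in RBPMS KD (Ccnd2 and Cdkn2b), 2 in RBFOX2 KD (Ccnd2 and Cdkn1c) and 3 in QKI KD (Ccnd1, Ccnd2 and Cdkn2b). Of all genes, 9.66%, 11.7% and 17.5% passed the same thresholds. The median log2 fold change of the 10 genes was -0.14, -0.12 and -0.55 in RBPMS, RBFOX2 and QKI KD, beside 0.0085, 0.015 and 0.0070 for all genes. The 3 contrasts share the control libraries, so differences between knockdowns were tested directly.

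**Figure D1:**
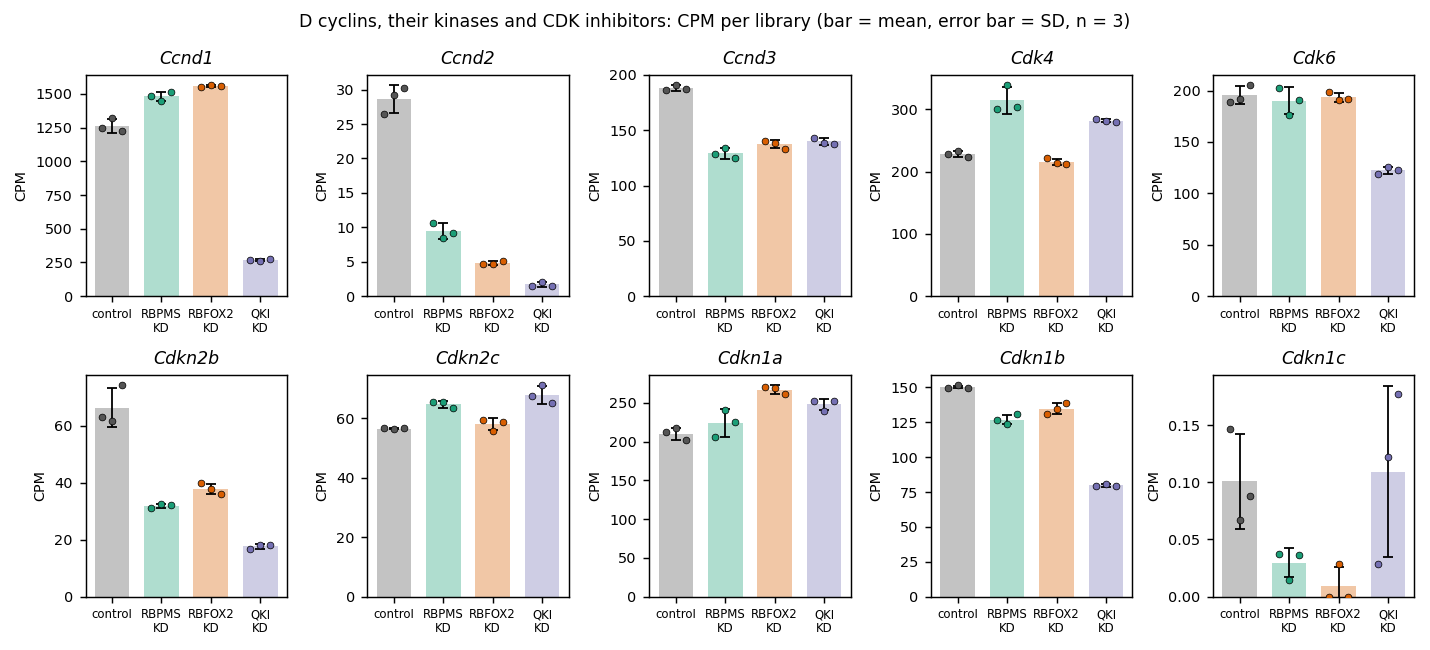
Level of each of the 10 genes in CPM (y axis, starting at 0, own scale per gene) in control and the 3 knockdowns (x axis). Points are libraries, bars the mean and error bars the SD (n = 3). Ccnd2 stepped down from 28.6 CPM in control to 1.71 in QKI KD, and Ccnd1 was low only in the 3 QKI KD libraries, at 261 to 276 CPM.

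Among the cyclins, Ccnd2 fell in all 3 knockdowns. It stood at 26.4, 29.2 and 30.3 CPM in the control libraries, 10.7, 8.41 and 9.24 in RBPMS KD, 4.74, 4.65 and 5.11 in RBFOX2 KD, and 1.54, 2.06 and 1.53 in QKI KD. No 2 groups overlapped. Against control the log2 fold change was -1.61 ± 0.089 (SE, adjusted p = 9.51e-11, edgeR) in RBPMS KD, -2.57 ± 0.094 (adjusted p = 3.01e-13) in RBFOX2 KD and -4.07 ± 0.11 (adjusted p = 2.04e-15) in QKI KD, or 3.04-fold, 5.93-fold and 16.8-fold lower. Each step in this order passed the direct test: RBPMS KD lay above RBFOX2 KD by 0.96 ± 0.096 (adjusted p = 2.02e-07), and RBFOX2 KD above QKI KD by 1.51 ± 0.11 (adjusted p = 2.36e-09). Cyclin D2 is a mitogen-induced cyclin that FOXO factors repress and MYC activates in other cells. Leaving aside Cdkn1c, which had few counts, its change in QKI KD was the largest of the set in these 3 contrasts.

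Ccnd1, the cyclin most closely tied to mitogen and adhesion signals, took opposite directions. Its level was 1243, 1322 and 1221 CPM in control, 1483, 1444 and 1514 in RBPMS KD, 1549, 1562 and 1561 in RBFOX2 KD, and 268.5, 261 and 276 in QKI KD. Both RBPMS and RBFOX2 KD lay a little above control in every library, while QKI KD lay far below all other libraries. The changes were 0.23 ± 0.035 (adjusted p = 2.17e-05), 0.30 ± 0.035 (adjusted p = 8.68e-07) and -2.23 ± 0.037 (adjusted p = 6.71e-18), the last a 4.71-fold lower level. The RBPMS KD libraries lay a little below the RBFOX2 KD libraries without overlap. That difference did not pass the direct test (-0.07 ± 0.035, adjusted p = 0.0852), but passed in 3 of 21 alternative analyses. QKI KD lay below both, by 2.46 ± 0.037 and 2.54 ± 0.037 on the log2 scale (adjusted p = 3.25e-18 and 1.68e-18). Ccnd1 RNA in QKI KD thus moved with Ccnd2, and in the other two knockdowns against it.

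Ccnd3, the third D cyclin, fell in each knockdown. Control libraries held 186, 191 and 188 CPM, RBPMS KD 128, 134 and 125, RBFOX2 KD 141, 138 and 133, and QKI KD 143, 139 and 138. Every knockdown library lay below every control library. The changes were -0.54 ± 0.035 in RBPMS KD (adjusted p = 6.98e-10), -0.45 ± 0.035 in RBFOX2 KD (adjusted p = 5.52e-09) and -0.43 ± 0.035 in QKI KD (adjusted p = 8.10e-09). RBFOX2 and QKI KD were not separated (-0.03 ± 0.035, adjusted p = 0.513), while RBPMS KD lay below QKI KD with no overlap (-0.12 ± 0.035, adjusted p = 0.00907, lost in 1 of 21 alternative analyses). The libraries of RBPMS and RBFOX2 KD overlapped. The difference between RBPMS and RBFOX2 KD, -0.09 ± 0.035 (adjusted p = 0.0409), was lost in 12 of the 21.

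Ratios of 2 genes within a library do not depend on how libraries are scaled, so they show the shift in the make-up of the cyclins directly. Gene lengths were not used, so only the change of a ratio between groups can be read, not its size. Ccnd2 counts were 2.27% ± 0.19 (SD, n = 3) of Ccnd1 counts in control, 0.637% ± 0.072 in RBPMS KD, 0.310% ± 0.015 in RBFOX2 KD and 0.640% ± 0.13 in QKI KD. The Ccnd3 counts were 14.9% ± 0.47 of Ccnd1 counts in control, 8.73% ± 0.55 and 8.82% ± 0.27 in RBPMS and RBFOX2 KD, and 52.2% ± 1.9 in QKI KD. The share of Ccnd3 beside Ccnd1 was thus higher than in control in QKI KD and lower in the other knockdowns, with no knockdown overlapping control. An exact two-sided permutation test gave p = 0.1 for each of these 6 comparisons, the smallest value that 3 against 3 libraries allow (adjusted p = 0.107 over 15 ratio comparisons).

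Both kinases stayed within the study's fold threshold in each knockdown. Cdk4 was at 228.5, 233 and 224 CPM in control, 301, 339 and 303 in RBPMS KD, 221, 213.5 and 213 in RBFOX2 KD and 284, 282 and 279 in QKI KD. It rose in RBPMS KD (0.46 ± 0.041, adjusted p = 3.15e-08) and in QKI KD (0.30 ± 0.041, adjusted p = 3.92e-06), and the value in RBFOX2 KD was -0.08 ± 0.041 (adjusted p = 0.0943). RBPMS KD lay above QKI KD by 0.16 ± 0.041 (adjusted p = 0.00266), a difference that was lost with library totals as the scale and in the authors' normalised table. QKI KD lay above RBFOX2 KD by 0.38 (-0.38 ± 0.041 for RBFOX2 against QKI KD, adjusted p = 2.03e-07).

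Cdk6, the partner kinase, changed in QKI KD alone among the 3 tests against control. It was at 189, 192 and 205 CPM in control, 203, 176 and 191 in RBPMS KD, 198.5, 191 and 192 in RBFOX2 KD, and 119, 126 and 123 in QKI KD. The first 3 groups overlapped, and QKI KD lay below all of them. Its log2 fold change was -0.67 ± 0.046 in QKI KD (adjusted p = 6.86e-10), beside -0.04 ± 0.046 in RBPMS KD (adjusted p = 0.457) and -0.01 ± 0.046 in RBFOX2 KD (adjusted p = 0.802), and QKI KD lay below RBPMS KD by 0.63 (adjusted p = 2.50e-09) and below RBFOX2 KD by 0.66 (adjusted p = 9.40e-10). The Cdk6 count was 85.7% ± 5.2 of the Cdk4 count in control, 60.8% ± 7.9 in RBPMS KD, 89.7% ± 0.36 in RBFOX2 KD and 43.5% ± 1.5 in QKI KD. For RBFOX2 KD the ratio overlapped with control (exact permutation p = 0.4). For the other two knockdowns it did not (exact permutation p = 0.1, the smallest possible).

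**Figure D2:**
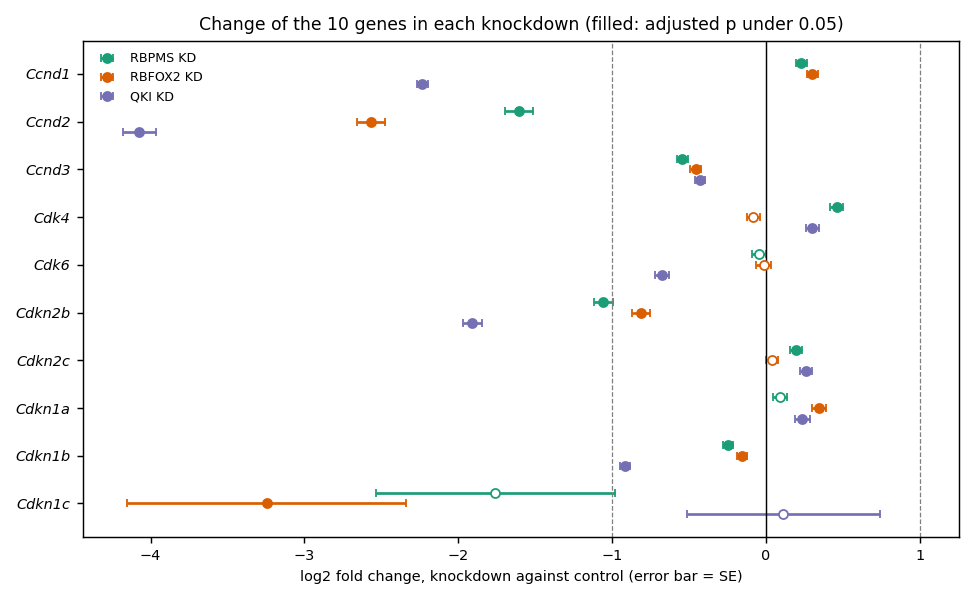
Log2 fold change of each gene against control (x axis) in RBPMS, RBFOX2 and QKI KD. Points are edgeR estimates and bars their SE, filled where the adjusted p was under 0.05, and dashed lines mark a log2 fold change of 1 in either direction. QKI KD stands apart for Ccnd1 (-2.23), Ccnd2 (-4.07), Cdk6 (-0.67), Cdkn2b (-1.91) and Cdkn1b (-0.92), and the wide bars of Cdkn1c reflect at most 22 counts per library.

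Among the inhibitors of the INK4 family, Cdkn2b fell in each knockdown. Its CPM was 63.2, 61.6 and 74.1 in control, 31.1, 32.5 and 32.1 in RBPMS KD, 39.7, 37.7 and 35.9 in RBFOX2 KD, and 16.7, 18.1 and 18.2 in QKI KD. No 2 groups overlapped, and control replicate 3 lay above the other two control libraries. The changes were -1.06 ± 0.061 (adjusted p = 1.65e-10), -0.81 ± 0.061 (adjusted p = 3.34e-09) and -1.91 ± 0.064 (adjusted p = 4.20e-14), or 2.08-fold, 1.75-fold and 3.75-fold lower. Without control replicate 3 the value in RBPMS KD was -0.97 and no longer passed the fold threshold. In direct tests RBPMS KD lay below RBFOX2 KD (-0.24 ± 0.061, adjusted p = 0.00268), and QKI KD lay below RBPMS KD by 0.85 ± 0.064 (adjusted p = 3.27e-09). Cdkn2b is a TGF-beta-induced gene that MYC represses in other cells, and it lies next to Cdkn2a, which encodes p16 and ARF. Cdkn2a, named after its values were seen, fell by less: -0.34, -0.21 and -0.46 in the 3 knockdowns (adjusted p = 3.59e-05, 0.00317 and 7.47e-07).

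Cdkn2c went the other way. It was at 56.6, 56.2 and 56.5 CPM in control, 65.3, 65.4 and 63.2 in RBPMS KD, 59.4, 55.7 and 58.9 in RBFOX2 KD, and 67.4, 71.0 and 65.0 in QKI KD. RBPMS and QKI KD lay above all control libraries (0.20 ± 0.039, adjusted p = 3.15e-04, and 0.26 ± 0.039, adjusted p = 1.10e-05), while RBFOX2 KD overlapped with control (0.04 ± 0.039, adjusted p = 0.424). RBPMS and QKI KD overlapped and their difference did not pass the direct test (-0.07 ± 0.039, adjusted p = 0.140), but passed in 4 of 21 alternatives. The Cdkn2b count was 117% ± 12 of the Cdkn2c count in control, 49.3% ± 1.6 in RBPMS KD, 65.2% ± 3.7 in RBFOX2 KD and 26.1% ± 1.7 in QKI KD. No knockdown overlapped with control in this ratio (exact permutation p = 0.1 for each, the smallest possible).

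Among the CIP/KIP inhibitors, Cdkn1b, which encodes p27, fell in each knockdown. It was at 150, 151.5 and 150 CPM in control, 126, 124 and 131 in RBPMS KD, 131, 134.5 and 139 in RBFOX2 KD, and 79.2, 80.8 and 79.2 in QKI KD. All knockdown libraries lay below control, with QKI KD far below the rest. The changes were -0.24 ± 0.033 in RBPMS KD (adjusted p = 5.45e-06), -0.16 ± 0.033 in RBFOX2 KD (adjusted p = 4.98e-04) and -0.92 ± 0.033 in QKI KD (adjusted p = 1.26e-13). QKI KD lay below RBPMS KD by 0.67 ± 0.033 (adjusted p = 1.37e-11) and below RBFOX2 KD by 0.76 ± 0.033 (adjusted p = 1.65e-12). The difference between RBPMS and RBFOX2 KD (-0.09 ± 0.033, adjusted p = 0.0321) was lost in 9 of 21 alternatives. The p27 protein is controlled largely by degradation, which RNA-seq does not measure.

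Cdkn1a, which encodes p21, rose slightly. It was at 212, 217 and 202 CPM in control, 206, 241 and 225 in RBPMS KD, 271, 270 and 261 in RBFOX2 KD, and 253, 239.5 and 252 in QKI KD. RBFOX2 and QKI KD lay above all control libraries (0.35 ± 0.048, adjusted p = 6.74e-06, and 0.24 ± 0.048, adjusted p = 2.73e-04), and RBPMS KD overlapped with control (0.09 ± 0.048, adjusted p = 0.107). RBFOX2 KD lay above RBPMS KD, with -0.25 ± 0.048 for RBPMS against RBFOX2 KD (adjusted p = 2.11e-04). The RBFOX2 KD libraries also lay above the QKI KD libraries without overlap. That difference did not pass the direct test (0.11 ± 0.047, adjusted p = 0.0536), but passed in 5 of 21 alternatives. The Cdkn1b count was 71.6% ± 2.4 of the Cdkn1a count in control, 56.9% ± 5.1 in RBPMS KD, 50.5% ± 2.5 in RBFOX2 KD and 32.2% ± 1.4 in QKI KD, with no knockdown overlapping control (exact permutation p = 0.1 for each, the smallest possible). The balance of these 2 inhibitor RNAs thus moved towards Cdkn1a in each knockdown.

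Cdkn1c, which encodes p57, was nearly silent. The libraries held 18, 10 and 12 counts in control, 4, 2 and 4 in RBPMS KD, 0, 4 and 0 in RBFOX2 KD, and 4, 14 and 22 in QKI KD. QKI KD overlapped with control. The fitted change passed the test in RBFOX2 KD (-3.25 ± 0.91, adjusted p = 0.00514), not in RBPMS KD (-1.76 ± 0.78, adjusted p = 0.0616) or QKI KD (0.11 ± 0.63, adjusted p = 0.883), and rests on so few counts that its size cannot be read. With one library left out in turn, the RBFOX2 KD estimate ran from -6.69 (without RBFOX2 KD replicate 2, the one library of that group with a count) to -2.72. Every count of Cdkn1c was even or 0, a feature that low counts of the table share (68.1% of values from 1 to 19 were even, against 50.9% above 1000), so the number of fragments behind these values is uncertain.

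The direct tests between knockdowns called 7 of the 10 genes between RBPMS and RBFOX2 KD, 9 between RBPMS and QKI KD and 8 between RBFOX2 and QKI KD at an adjusted p under 0.05, where 56.7%, 61.0% and 68.5% of all tested genes were called. The 9 and the 8 include Cdkn1c with its few counts, and its call between RBPMS and QKI KD was lost in 11 of 18 alternatives. Between RBPMS and RBFOX2 KD, 3 genes were higher and 4 lower, and 2 to 4 higher and 2 to 6 lower over the alternatives. The median absolute difference of the 10 genes was 0.20, 0.65 and 0.71 on the log2 scale in these 3 tests, beside 0.30, 0.35 and 0.43 for all genes. RBPMS and RBFOX2 KD thus lay closer together in this set than either lay to QKI KD.

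**Figure D3:**
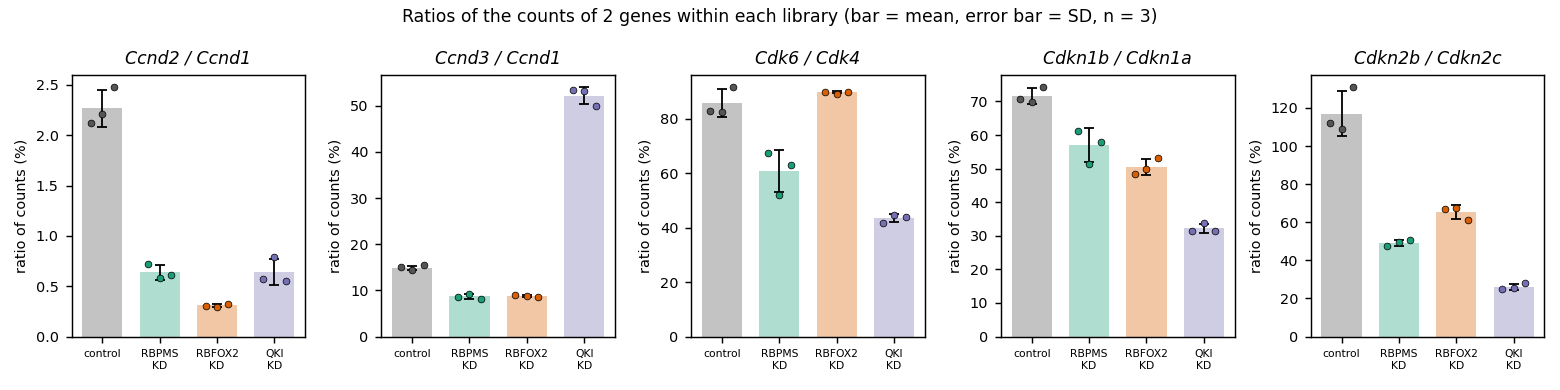
Ratio of the counts of 2 genes within each library, in percent (y axis, starting at 0), in control and the 3 knockdowns (x axis). Points are libraries, bars the mean and error bars the SD (n = 3). The Ccnd3 / Ccnd1 ratio is 52.2% in QKI KD against 14.9% in control. Of the 15 knockdown groups, 14 do not overlap with control, Cdk6 / Cdk4 in RBFOX2 KD being the exception. The share of all gene pairs without overlap was not computed. At an adjusted p under 0.05 (edgeR), 59.4%, 60.3% and 66.9% of all tested genes changed in RBPMS, RBFOX2 and QKI KD.

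Genes that act with the set around the G1/S step (substrates, regulators and later cyclins and kinases) were read from a list of 32, all of them tested. In RBPMS KD, 13 rose and 15 fell, beside 30.4% and 29.0% of all tested genes. In RBFOX2 KD 8 rose and 17 fell, beside 30.1% and 30.1%, and in QKI KD 13 rose and 12 fell, beside 32.9% and 34.0%. The list's medians were -0.052, -0.15 and -0.00072, beside 0.0085, 0.015 and 0.0070 for all genes. Both thresholds were passed by 1, 1 and 4 of its genes, where 9.66%, 11.7% and 17.5% of all genes passed. Rb1, the retinoblastoma protein and main substrate of cyclin D kinases, fell in each knockdown. It was at 30.7, 30.1 and 31.6 CPM in control, 17.4, 16.2 and 18.97 in RBPMS KD, 22.9, 24.1 and 23.9 in RBFOX2 KD, and 7.62, 7.86 and 7.502 in QKI KD. The changes were -0.82 ± 0.053 (adjusted p = 6.60e-10), -0.38 ± 0.052 (adjusted p = 5.59e-06) and -2.01 ± 0.056 (adjusted p = 4.42e-15). In QKI KD, Rb1 was thus 4.02-fold lower beside the 4.71-fold lower Ccnd1.

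The other pocket proteins differed from Rb1. Rbl2 (p130), which holds E2F4 in resting cells, was at 31.9 ± 0.62 CPM in control (SD, n = 3), 21.7 ± 0.73 in RBPMS KD, 37.0 ± 0.41 in RBFOX2 KD and 13.3 ± 0.95 in QKI KD. It fell by 0.56 and by 1.27 in RBPMS and QKI KD (adjusted p = 2.19e-08 and 3.26e-13) and rose by 0.21 in RBFOX2 KD (adjusted p = 7.79e-04). Rbl1 (p107), itself an E2F target and named after its values were seen, rose by 0.50 in RBPMS KD (adjusted p = 2.88e-08), was at -0.09 in RBFOX2 KD (adjusted p = 0.0936) and fell by 0.54 in QKI KD (adjusted p = 9.83e-09). In QKI KD all 3 pocket protein genes were therefore lower, and in RBPMS KD 2 of the 3. E2f4, a repressive E2F that works with p130 and p107, was at 59.9 ± 0.61 CPM in control and 20.2 ± 0.24 in RBFOX2 KD, a change of -1.57 ± 0.040 (adjusted p = 3.02e-15), while its change was 0.20 in RBPMS KD and 0.17 in QKI KD (adjusted p = 2.49e-04 and 7.07e-04).

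**Figure D4:**
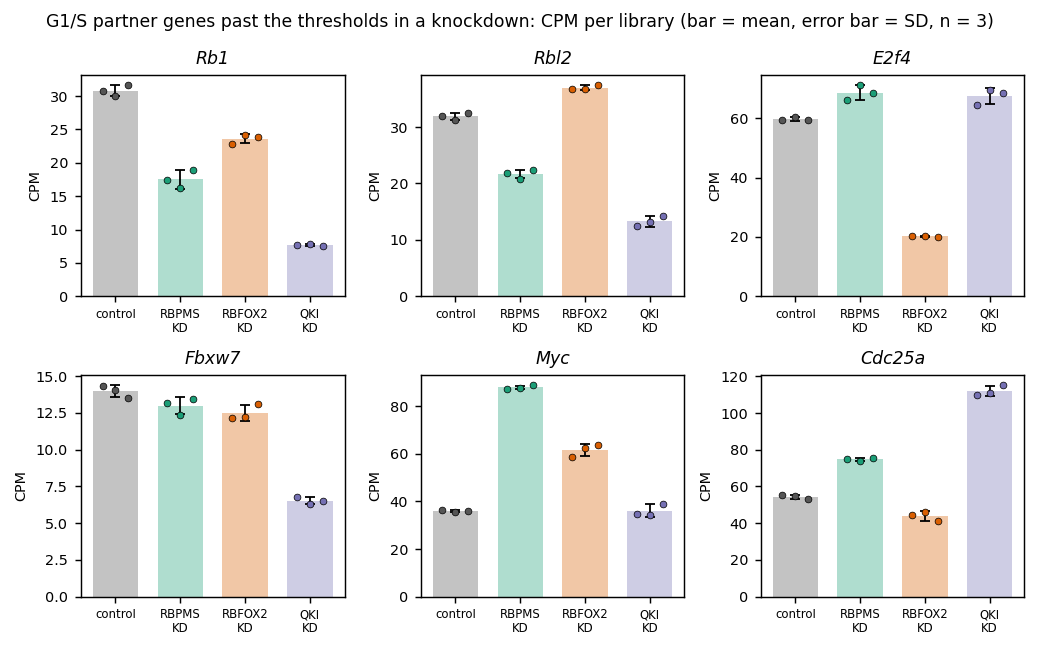
Level in CPM (y axis, starting at 0, own scale per gene) of the 6 G1/S partner genes that passed both thresholds in at least 1 knockdown, in control and the 3 knockdowns (x axis). Points are libraries, bars the mean and error bars the SD (n = 3). Rb1 was lowest in QKI KD at 7.66 CPM, E2f4 was low in RBFOX2 KD at 20.2 CPM, and Myc was highest in RBPMS KD at 88.0 CPM.

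Upstream of the cyclins, Myc stood at 35.9 ± 0.42 CPM in control, 88.0 ± 0.74 in RBPMS KD, 61.7 ± 2.5 in RBFOX2 KD and 36.1 ± 2.6 in QKI KD. It rose in RBPMS KD (1.29 ± 0.046, adjusted p = 3.79e-13) and RBFOX2 KD (0.78 ± 0.046, adjusted p = 1.59e-10), and its value in QKI KD was 0.01 ± 0.047 (adjusted p = 0.893). Of the genes beside the kinases, Cdc25a, the phosphatase that activates CDK2, was at 54.5 ± 1.1 CPM in control, 74.7 ± 0.83 in RBPMS KD, 43.9 ± 2.6 in RBFOX2 KD and 112 ± 2.7 in QKI KD. It rose by 0.46 and 1.04 in RBPMS and QKI KD (adjusted p = 3.66e-08 and 3.52e-13) and fell by 0.31 in RBFOX2 KD (adjusted p = 4.08e-06). Fbxw7, part of the ubiquitin ligase that degrades cyclin E and MYC, fell in QKI KD (-1.10 ± 0.056, adjusted p = 1.25e-11).

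The E-type cyclins, which take over from cyclin D late in G1, were looked at after their values were seen. Ccne1 fell in each knockdown, by 0.75, 0.84 and 0.86 (adjusted p = 1.01e-10, 1.81e-11 and 6.59e-12). Ccne2 rose by 0.96 and 0.84 in RBPMS and RBFOX2 KD (adjusted p = 1.04e-10 and 4.16e-10) and by 0.19 in QKI KD (adjusted p = 0.00500). One member of the pair was thus lower and the other higher in each knockdown, as was the case for Ccnd2 and Ccnd1 in RBPMS and RBFOX2 KD.

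Downstream, the E2F target list of 16 replication genes (the Mcm helicase, Pcna, nucleotide synthesis and origin licensing), all tested, rose as a whole in RBPMS KD: 16 rose and 0 fell, with a median of 0.41 beside 0.0085 for all genes. Over 21 alternative analyses 15 to 16 rose and 0 fell. In QKI KD 11 rose and 5 fell with a median of 0.16. These counts ran from 10 to 11 higher and from 2 to 5 lower over the alternatives. In RBFOX2 KD 6 rose and 4 fell with a median of 0.083. Here the counts ran from 3 to 9 higher and from 3 to 6 lower over the alternatives. Of all tested genes, 30.4% rose and 29.0% fell in RBPMS KD, 32.9% and 34.0% in QKI KD, and 30.1% and 30.1% in RBFOX2 KD. The counts in RBFOX2 KD thus lay near these shares. Pola1, the catalytic subunit of DNA polymerase alpha, rose in each knockdown (0.90, 0.75 and 0.95, adjusted p = 2.98e-11, 2.33e-10 and 5.20e-12). Rrm2, a subunit of ribonucleotide reductase, fell by 0.82 in QKI KD (adjusted p = 3.29e-12) and rose by 0.19 in RBPMS KD (adjusted p = 3.46e-04), with -0.07 in RBFOX2 KD (adjusted p = 0.0969). The direct test placed 15 of the 16 genes higher in RBPMS than in RBFOX2 KD (10 to 15 over the alternatives), where 28.8% of all tested genes were higher. Mki67, the proliferation marker, changed little: 0.17, 0.19 and -0.06 (adjusted p = 0.00936, 0.00546 and 0.338). In RBPMS KD the call failed in the authors' table (Mki67 at 0.092) and without RBPMS KD replicate 1 (0.11), and in QKI KD the value turned positive with library totals as the scale. The study's proliferation assay measured EdU incorporation, not RNA. It reports more incorporation after knockdown of RBPMS and of QK, and no effect of RBFOX2 depletion.

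**Figure D5:**
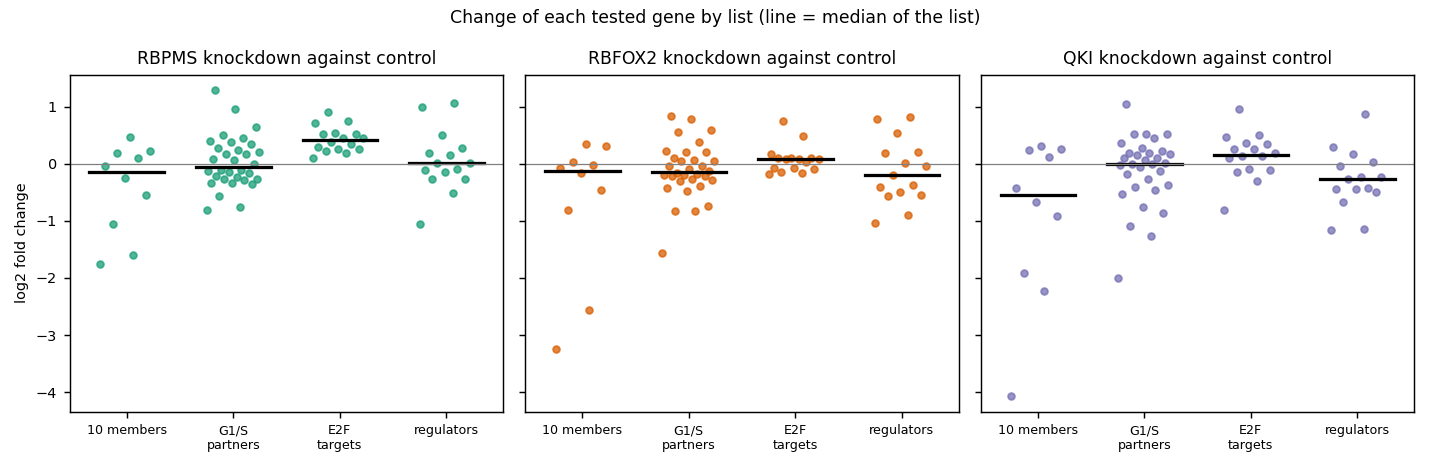
Log2 fold change against control (y axis) of each tested gene of 4 lists (x axis), with 1 panel per knockdown. Points are genes and black lines the median of a list. The E2F targets lie above 0 in RBPMS KD (median 0.41) and the 10 genes of the set spread widest in QKI KD.

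Transcription factors that act on these genes in other systems formed the last list. Of 16 listed, 15 were tested. In RBPMS KD 6 rose and 6 fell (30.4% and 29.0% of all genes), in RBFOX2 KD 5 rose and 8 fell (30.1% and 30.1%), and in QKI KD 3 rose and 10 fell (32.9% and 34.0%). The medians were 0.0041, -0.20 and -0.27. Klf4, a factor that induces Cdkn1a and opposes the contractile state, was at 106.5 ± 6.7 CPM in control, 223 ± 2.6 in RBPMS KD, 108 ± 4.6 in RBFOX2 KD and 47.5 ± 2.0 in QKI KD. It rose in RBPMS KD (1.07 ± 0.046, adjusted p = 3.85e-12), fell in QKI KD (-1.17 ± 0.047, adjusted p = 4.97e-13) and was at 0.01 ± 0.046 in RBFOX2 KD (adjusted p = 0.810). Fosl1, an AP-1 subunit, rose in each knockdown (1.00, 0.53 and 0.29, adjusted p = 2.45e-11, 5.72e-08 and 4.93e-05). Egr1, an immediate early gene, fell in each (-1.05, -1.04 and -0.50, adjusted p = 2.35e-08, 2.34e-08 and 8.80e-05).

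The 3 genes of the set with the widest range of group means (4.07 for Ccnd2, 2.54 for Ccnd1 and 1.90 for Cdkn2b, in log2 CPM) were compared with 10038 genes of at least 5 CPM over the 12 libraries. The points are 4 groups of 3 libraries, so the correlations mainly describe the order and spacing of 4 group means. The genes most like Ccnd2 were Ehmt1, a histone methyltransferase (Pearson r = 0.995), Ntn4, a secreted netrin (0.994), and Ltbp2, a matrix protein (0.993). Ltbp2 ran from 599 ± 28 CPM in control through 366 ± 40 and 254 ± 7.7 to 149 ± 5.3 in QKI KD, the same order of groups as Ccnd2. Those most like Ccnd1 were Cav1, which encodes caveolin 1, Fam120a and Cast, which encodes calpastatin (r = 0.998 each). Cav1 was at 545 ± 14 CPM in control, 641 ± 14 in RBPMS KD, 645 ± 8.7 in RBFOX2 KD and 150 ± 2.7 in QKI KD. Those most like Cdkn2b were Csnk1e, a casein kinase (0.998), Trpv2, a cation channel (0.996), and Twsg1, a BMP-binding protein (0.995). With Spearman's correlation Ehmt1 stayed among the first 3 for Ccnd2 and Trpv2 for Cdkn2b, and the other 7 genes were replaced.

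Within the set, Cdkn2b correlated with Ccnd2 (r = 0.928 over the 12 libraries), and Cdk6 and Cdkn1b with Ccnd1 (r = 0.972 and 0.938). Cdkn1b correlated with Cdkn2b as well (r = 0.925). Against control, Ccnd1 rose in RBPMS and RBFOX2 KD (0.23 and 0.30), where Cdkn1b fell (-0.24 and -0.16) and Cdk6 did not pass the test. Only in QKI KD did Ccnd1, Cdk6 and Cdkn1b all fall. Cdkn2c ran against Cdkn2b (r = -0.862) and with Cdk4 (r = 0.816). These values again rest on the 4 group means, and Cdkn1c was left out for its low counts.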

How the data were processed

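PAC1 RNA was measured by poly(A) RNA-seq in 12 libraries, grouped by their titles into 4 groups of 3. The authors deposited raw counts per gene (33294 genes) and a normalised signal (22320 genes). Reads were aligned with STAR (version 2.5.2a in the submitters' processing notes, another version in the study's methods) to mRatBN7.2, and per those methods featureCounts counted them, and noisyR filtering with quantile normalisation gave the signal. Whether counting used strand, and how reads shared by paralogues were handled, is not given in the sources used here.

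Tests used edgeR 4.0.16 (R 4.3.3): filterByExpr (18438 genes), TMM scaling, 1 fit over 12 libraries, glmQLFTest, two-sided, with Benjamini-Hochberg adjustment over all genes tested. SEs are the fold change divided by the root of F. CPM are counts divided by the TMM-scaled total and multiplied by 1e+06. Totals of 111 to 152 M counts entered the tests, and the number of fragments behind them is uncertain. Counts of 3 or fewer in every library were treated as the floor. A call needed an adjusted p under 0.05, with the study's thresholds adding an absolute log2 fold change above 1. Ratios of counts were compared by exact permutation tests. Scripts were tested on simulated data. Alternatives were other scalings, filters and fits, DESeq2 1.42.0, limma 3.58.1 on log2(signal + 1), halved counts and leaving out each library.

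From the partner, target and regulator lists, the text names genes of at least 5 CPM that passed both thresholds in a knockdown and the largest rise and fall of each list. Likeness took the 3 genes with the highest Pearson correlation among symbols not starting with LOC or RGD. The 10 genes and the lists were chosen with earlier results of these data known. Promoter sequences came from a RefSeq table of GRCr8 and siRNA sequences from the study's oligonucleotide list. Replicates numbered alike were not treated as pairs. Splicing was not analysed here, and 1 further gene list with its genes is not reported here.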

Additional observations from a re-analysis of the deposited data

How the results depend on the processing

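For the 10 genes in 6 contrasts, 1175 of 1243 alternative results kept their direction and their side of the threshold, 38 lost and 21 gained an adjusted p under 0.05, and 9 turned their sign. The number of genes past both thresholds in RBPMS KD against control was 2, and 1 to 2 with a library left out (1 without control replicate 3, which ends the fold call of Cdkn2b). In RBFOX2 KD against control it was 2, and 1 with a mean of at least 200 counts, with halved counts and with the 6 libraries alone, each of which ends or removes the call of Cdkn1c. Between RBPMS and RBFOX2 KD it was 0 by edgeR, where 7 genes passed the adjusted p alone, and 0 to 1 with a library left out (1 without RBPMS KD replicate 2, RBFOX2 KD replicate 2 or RBFOX2 KD replicate 3). Values near 0 turned their sign. For Cdk6 in RBPMS KD, leaving out a library gave -0.091 to 0.0079. For Cdk6 in RBFOX2 KD it gave -0.041 to 0.020, library totals gave 0.040, the filter of 200 counts gave 0.0076 and the authors' table gave 0.039, and for Cdk6 between RBPMS and RBFOX2 KD leaving out a library gave -0.075 to 0.024. Cdkn1c in QKI KD was -0.19 in the authors' table and -0.44 to 0.59 with a library left out. Klf4 in RBFOX2 KD was -0.035 to 0.054 with a library left out, and Myc in QKI KD -0.0057 with no filter and -0.055 to 0.045. Mki67 in QKI KD was 0.027 with library totals and 0.040 in the authors' table. The cause was not tested. The filter of 200 counts, which leaves out genes with a lower mean, reduced the number of all genes past both thresholds. It went from 1781, 2156 and 3231 in RBPMS, RBFOX2 and QKI KD to 692, 840 and 1484. At an adjusted p alone the number went from 10946, 11113 and 12336 to 9230, 9140 and 9813. Library totals in place of TMM moved the median of all genes by at most -0.13 (RBPMS against QKI KD). Deviations of replicates with the same number correlated at r = -0.344 to 0.246 (over 0.1 in 4 of 18 pairs). Of the 12 libraries, 3 correlated best with their own number. With the replicate block 1752, 2110 and 3203 genes passed, with the counts of the 10 genes past both thresholds at 2, 2 and 3.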
